A study of Mus musculus with 2 samples.

Results

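The small leucine-rich proteoglycans Dcn, Lum, Bgn, Fmod, Ogn and Prelp and the cell-surface heparan sulfate proteoglycans Sdc1, Sdc2, Sdc4 and Gpc1 were followed in the RNA of adipocyte-derived microvesicles (ADMs, membrane particles released by fat cells) and in RNA of the donor cells. All probes that carry 1 of these 10 gene symbols were taken, which gave 15 of the 41174 probes and 10 of the 27962 gene names on the arrays. The genes Dcn, Bgn, Prelp, Sdc2 and Sdc4 were covered by a pair of probes each, and every one of the 15 probes stood on 1 spot per array.

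Both groups came from 3T3-L1, an established mouse preadipocyte line, kept in high-glucose medium with 10% serum and turned into adipocytes with 0.25 µM dexamethasone, 0.5 mM 3-isobutyl-1-methylxanthine and 10 µg/ml insulin. On day 11 the ADMs were collected by ultracentrifugation of the culture medium, and the donor adipocytes were harvested on that same day. Each of 2 arrays held 1 ADM RNA and 1 cell RNA, 250 ng of each having entered the labelling, with the ADM RNA in Cy5 on replicate 1 and in Cy3 on replicate 2. No genotype or treatment separates the groups, a single cell line was used, and no purification beyond the centrifugation is given in the sources used here, so RNA in other particles of the same pellet would be read as ADM RNA. The labels call the replicates biological, without saying whether the cultures were separate, so the spread between the arrays may be technical in part. Every direction below rests on the dye that the labels give each RNA, and an exchange of the RNAs on both arrays would turn them all.

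Small leucine-rich proteoglycans are secreted proteins of the extracellular matrix that bind collagen fibrils and growth factors, and most of them carry chondroitin, dermatan or keratan sulfate chains. Syndecans cross the plasma membrane and glypicans are tied to it by a lipid anchor, and both carry heparan sulfate chains that hold growth factors and lipoproteins at the cell surface. Fat tissue and cultured adipocytes are known to make a collagen-rich matrix that holds several of these proteins. The arrays measured their transcripts, not the proteins or their sugar chains.

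The unit in which the transcripts were compared needs a word first. The net signal is the mean of a spot minus the median of its local background, in scanner units. It was far higher for the ADM-labelled RNA, with a median over all probes of 544.5 against 17.28 on replicate 1 and of 207.6 against 36.45 on replicate 2. A probe at the median of the 18117 tested probes therefore gave a net signal 38.9 times higher in the ADM-labelled RNA on replicate 1 and 7.62 times higher on replicate 2. Loess removes this offset as a smooth function of brightness, so a log2 ratio after loess says how a probe stood against probes of like brightness on the same array, and not how much transcript each RNA held. No probe's level is set against another probe's here, since brightness also depends on the probe.

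The labelled cell type was checked first. All 10 adipocyte markers, among them Adipoq, Fabp4 and Plin1, were detected (well above background on both arrays) in ADM-labelled RNA, and 9 of them in cell-labelled RNA, the exception being Lep. Of 7 endothelial markers 0 were detected in either RNA, and of 8 macrophage markers 3 (Cd14, Cd68 and Lyz2) in ADM-labelled and 2 (Cd14 and Lyz2) in cell-labelled RNA. Ptprc, Adgre1, Itgam and Fcgr1, also macrophage markers, were not above background in either. Of 10 preadipocyte and fibroblast markers, 10 were detected in ADM-labelled RNA and 8 in cell-labelled RNA.

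Among the matrix proteoglycans, transcripts of Lum, Ogn and Sdc1 rose in the ADM-labelled RNA relative to probes of like brightness, and those of Fmod and 1 of the probes of Prelp fell. Of the 15 probes, 13 were detected in ADM-labelled RNA. In cell-labelled RNA 8 were detected, 4 were above background on replicate 2 alone, and 3 on neither array. The second probes of Dcn and Bgn were above background in neither RNA. Of the 15, 10 probes of 9 genes entered the test. The others were these 2 dark probes and 3 bright ones, of Dcn, Sdc2 and Sdc4, whose local background carried the scanner's outlier mark. By limma, with Benjamini-Hochberg adjustment over all tested probes and a threshold of 0.05, 3 of the 10 were higher and 2 lower. Over all tested probes the rates were 5.52% higher and 10.9% lower. A probe entered the test when 1 of the RNAs was detected. Lum and Sdc1 entered through the ADM-labelled RNA alone, in which they were higher, so their calls are not independent of that filter. On both arrays 7 of the 10 tested probes lay above 0 and the other 3 below it. Their median log2 ratio was 0.45, against 0.07 for all tested probes.

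**Figure D1:**
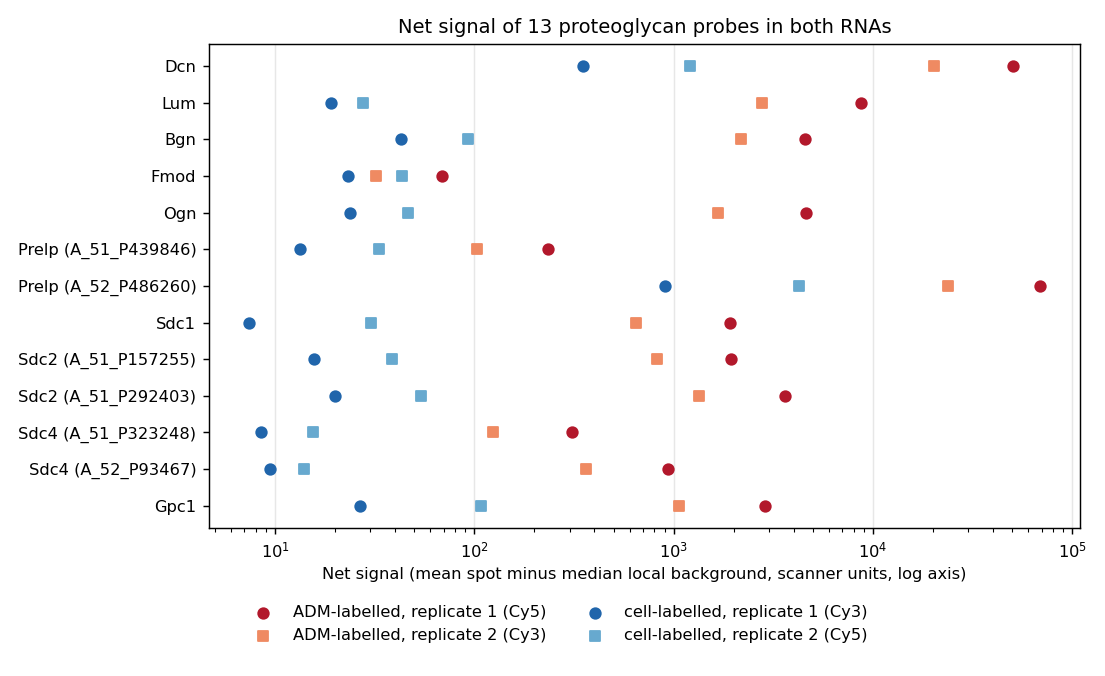
Net signal in scanner units (log axis) of the 13 proteoglycan probes detected in ADM-labelled RNA, with 1 point per RNA and array (circles, replicate 1; squares, replicate 2; red and orange, ADM-labelled; blue, cell-labelled). The ADM-labelled points lie to the right of the cell-labelled ones on both arrays for 12 probes; for Fmod this holds on replicate 1 (68.6 against 23.2) and not on replicate 2 (32.0 against 43.3).

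Decorin (Dcn), the prototype of the family, which binds collagen and transforming growth factor beta, was bright in both RNAs. Its probe A_51_P334104 (mm7 chr10:97080086-97080145) gave a net signal of 50269 in the ADM-labelled and 350.0 in the cell-labelled RNA on replicate 1, and of 20106 and 1200 on replicate 2. The ADM-labelled signal was thus higher on both arrays, by 144-fold and 16.8-fold, both above the median probe. That median is over probes of every brightness, so this does not compare probes of like brightness. The scanner had marked the local background of this spot as an outlier on both arrays, although it read 49 units around the ADM-labelled spot of replicate 1 and 42 around the cell-labelled spot of replicate 2, and the probe was left out of the test for that mark. When spots were left out only where the local background exceeded 100 units, a choice made after the data were seen, the log2 ratio was 0.14 on replicate 1 and 0.60 on replicate 2, with a mean of 0.37 ± 0.32 (SD, n = 2) and a limma adjusted p of 0.179. It did not pass, and it was at 0.736 with all marked spots kept. The other Dcn probe, A_52_P252726, lies 36886 bases away at chr10:97043200-97043259 and was designed on a full-length cDNA clone. Its net signals were 7.14 and 1.90 on replicate 1 and 4.28 and 7.36 on replicate 2, above background in neither RNA. The level of Dcn thus rests on 1 probe.

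Lumican (Lum), a keratan sulfate proteoglycan that sets the spacing of collagen fibrils, had the highest ratio of the tested probes of these genes. The probe (chr10:97135063-97135122) lies 54977 bases from the bright Dcn probe. Its net signal was 8659 in the ADM-labelled and 18.98 in the cell-labelled RNA on replicate 1, and 2774 and 27.68 on replicate 2. In the cell-labelled RNA it was well above background on replicate 2 only. On replicate 2, where both RNAs were above background, the net fold was 100, against a median of 7.62 over tested probes of every brightness. The log2 ratio after loess was 1.60 on replicate 1 and 2.33 on replicate 2, with a mean of 1.97 ± 0.51 (SD, n = 2), a fold of 3.91 and a limma adjusted p of 0.0198. Of all tested probes, 99.9% lay lower. Over the alternative settings the mean lay between 0.45 and 5.69, and it did not pass in 1 of them, that which kept every spot with a marked local background (adjusted p = 0.736 in limma).

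Biglycan (Bgn), the closest relative of decorin, was measured by A_52_P162486 (chrX:68879864-68879923). Net signals were 4568 against 42.97 on replicate 1 and 2166 against 93.21 on replicate 2, and the probe was detected in both RNAs. The log2 ratio was 0.44 and 1.07, a mean of 0.76 ± 0.44 (SD, n = 2), and it did not pass, with a limma adjusted p of 0.0744 and 96.4% of tested probes lower. With a variance that depends on brightness (eBayes with trend) the same mean passed, at an adjusted p of 0.0442 within a range of 4.17e-09 to 0.736 over the alternatives. The other probe, A_52_P19711, lies 1529 bases away (chrX:68878335-68878394) and was not above background in either RNA, at net signals of 15.3 or less. As for Dcn, a bright and a dark probe thus carry the same gene symbol.

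Osteoglycin (Ogn), also called mimecan, a small matrix proteoglycan of bone and connective tissue, passed as higher. The probe (chr13:49108057-49108116) gave 4631 against 23.76 on replicate 1 and 1675 against 46.62 on replicate 2. It was detected in both RNAs, and the net folds were 195 and 35.9. The log2 ratio was 0.91 and 1.40, a mean of 1.16 ± 0.34 (SD, n = 2) and a fold of 2.23, with a limma adjusted p of 0.0288 and 98.9% of tested probes lower. Plain subtraction of the background gave a larger mean, 1.64, that did not pass (adjusted p = 0.0547, range 5.61e-10 to 0.736).

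Fibromodulin (Fmod), which binds type I collagen in a region shared with lumican, went the other way. The probe (chr1:133937206-133937265) was dim in both RNAs, at 68.58 in the ADM-labelled and 23.20 in the cell-labelled RNA on replicate 1, and at 31.97 and 43.25 on replicate 2. It was the single probe among the 13 whose cell-labelled signal exceeded the ADM-labelled one on an array. The net folds of 2.96 and 0.739 were both below those of the median probe. After loess the log2 ratio was -0.60 and -1.01, a mean of -0.80 ± 0.29 (SD, n = 2) and a fold of 0.573, with a limma adjusted p of 0.0445. The scanner's own processed ratio was further from 0, at -2.24 and -2.50. With median centring the mean was -0.05 (adjusted p = 0.951, range over the alternatives 0.0115 to 0.951) while the median of all tested probes was 2.04.

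Prelp, a proline- and arginine-rich protein that links basement membranes to collagen, was measured by a bright and a dim probe. The gene is on the minus strand, and A_52_P486260 (chr1:133800142-133800201) lies 4687 bases nearer its 3′ end than A_51_P439846 (chr1:133804829-133804888). The 3′ probe gave 68948 against 899.8 on replicate 1 and 23663 against 4229 on replicate 2, and carried no saturation mark. The other probe gave 233.8 against 13.40 and 102.8 against 33.03, and its cell-labelled signal was above background on replicate 2 only. The net folds of the 3′ probe, 76.6 and 5.60, lay above the median probe on replicate 1 and below it on replicate 2.

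After loess the 3′ probe of Prelp had log2 ratios of -1.31 and -1.09, a mean of -1.20 ± 0.15 (SD, n = 2) and a fold of 0.435, with a limma adjusted p of 0.0181. Of the tested probes 7.67% lay lower. The probe farther from the 3′ end had -0.13 and -0.50, a mean of -0.31 ± 0.26 (SD, n = 2), which did not pass (adjusted p = 0.205). Both probes were thus below 0 on both arrays, and the test was passed by 1 of them. The call on the 3′ probe depended on the setting. The log2 ratio was -0.35 in the scanner's processed values (limma adjusted p = 0.323), -0.68 with a normexp offset of 10 (0.0592), -0.48 with plain background subtraction (0.233) and -1.20 with the variance trend (0.0868). With median centring both probes of Prelp turned positive, at 4.0 for the 3′ probe and 1.17 for the other. Against the median of all tested probes under that centring the values were 1.96 and -0.87. At the brightness of the 3′ probe the loess curve rests on few points, since 118 of the 18117 tested probes were at least as bright.

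**Figure D2:**
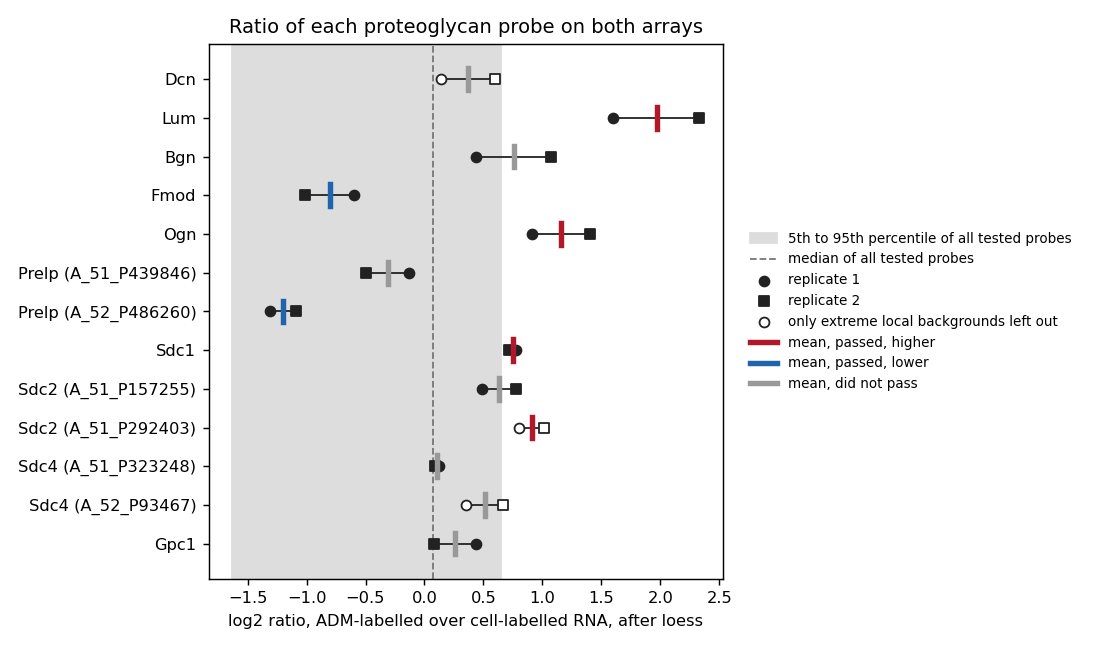
Log2 ratio of ADM-labelled over cell-labelled RNA after loess for the 13 probes, on replicate 1 (circles) and replicate 2 (squares), with the mean as a vertical bar (red, passed and higher; blue, passed and lower; grey, did not pass). Open points are the 3 probes that have values on both arrays only when just the spots with a local background above 100 units are left out; the grey band runs from the 5th to the 95th percentile of all tested probes (-1.63 to 0.65) and the dashed line is their median (0.07). Lum, Ogn, Sdc1 and the Sdc2 probe with open points lie to the right of the band on both arrays, and no probe lies to the left of it.

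Several genes of this family lie in clusters on the chromosomes. Of the neighbours of Lum and Ogn, 1 passed, and most were too dim in the cell-labelled RNA for a ratio. On chromosome 10, Kera, which encodes the corneal proteoglycan keratocan, is 41020 bases from Lum between probe starts, and Epyc, a cartilage proteoglycan, 108635 bases. Neither was above background in the cell-labelled RNA and neither passed (limma adjusted p = 0.815 and 0.578). With that signal undetected, no fold can be given for Kera or Epyc. On chromosome 13, the probe of Aspn, the asporin gene, starts 57070 bases from that of Ogn and rose by 0.93 ± 0.12 (adjusted p = 0.0243), with net signals of 2048 against 6.83 and 717.0 against 21.55. It entered the test through the ADM-labelled RNA alone, as its cell-labelled signal was above background on 1 array. Ecm2, 93917 bases away, was not above background in the cell-labelled RNA on either array and did not pass (adjusted p = 0.314), so no fold is given. Omd, the osteomodulin gene between Aspn and Ogn, was above background in neither RNA.

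Of the 6 tested probes of small leucine-rich proteoglycans, 2 were higher and 2 lower, with a median log2 ratio of 0.22. Markers of preadipocytes and fibroblasts, cells that also make these proteins, were counted beside this group, which had no single direction. Of 9 tested markers 4 were higher and 1 was lower, where 6.48% of all tested genes were higher and 13.4% lower. The passing probe of Pdgfra entered the test through the ADM-labelled RNA alone, so its call is not independent of that filter. The summed net signal of the 10 markers was 241209 in the ADM-labelled against 1484 in the cell-labelled RNA on replicate 1. On replicate 2 it was 93478 against 5225. Of 7 tested adipocyte markers 1 was higher and 3 were lower, while Adipoq, Cfd and Cidec were not tested. The summed net signal of the adipocyte markers was 2493850 against 7561 on replicate 1 and 1204764 against 65775 on replicate 2. The part of undifferentiated cells in the proteoglycan ratios was not tested.

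Syndecan-1 (Sdc1), a transmembrane heparan sulfate proteoglycan known for binding growth factors and lipoproteins, passed as higher. Its probe (chr12:8818810-8818869) gave 1918 against 7.36 on replicate 1 and 647.1 against 30.41 on replicate 2, and the cell-labelled signal was above background on replicate 2 only. The log2 ratios were 0.78 and 0.72, with a mean of 0.75 ± 0.04 (SD, n = 2), a fold of 1.68 and a limma adjusted p of 0.0297. With the cell-labelled signal of replicate 1 not above background, the small SD is no measure of agreement between the arrays. Of the tested probes 96.3% lay lower. The call was lost in the scanner's processed ratio, where replicate 1 had 4.34 and replicate 2 had 1.59 (mean 2.97 ± 1.95, adjusted p = 0.0682), and with plain background subtraction (1.82, adjusted p = 0.0909), over a range of 6.02e-07 to 0.736. In both cases the mean was higher than after normexp.

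Syndecan-2 (Sdc2), the syndecan typical of mesenchymal cells, was covered by probes 1910 bases apart. A_51_P157255 (chr15:33143072-33143131) gave 1928 against 15.70 on replicate 1 and 821.8 against 38.73 on replicate 2. Its log2 ratio was 0.49 and 0.78, a mean of 0.63 ± 0.21 (SD, n = 2), with a limma adjusted p of 0.0525, just above the threshold. The same probe passed with an offset of 10 (0.87, adjusted p = 0.0312), in the scanner's processed ratio (1.51, 0.025) and with the variance trend (0.0275).

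The other Sdc2 probe, A_51_P292403 (chr15:33141162-33141221), gave 3599 against 19.98 and 1331 against 54.16. Its local background carried the outlier mark on replicate 1, at 39 and 34 units, so it had a value on replicate 2 only, 1.02. With just the backgrounds above 100 units left out, its log2 ratio was 0.80 and 1.01, a mean of 0.91 ± 0.15 (SD, n = 2), which passed (limma adjusted p = 0.0205, against 0.736 with all marked spots kept). Under that same setting the first probe had 0.63 and passed as well (adjusted p = 0.0461). Both probes of Sdc2 were thus above 0 on both arrays. Whether the gene passes depended on how local backgrounds were handled and, for the first probe, also on the offset, the scaling and the variance model.

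Syndecan-4 (Sdc4), a component of focal adhesions, was measured on the minus strand of chromosome 2 by A_51_P323248 (chr2:164165270-164165329) and, 1095 bases farther from the 3′ end, by A_52_P93467 (chr2:164166365-164166424). The first gave 308.6 against 8.50 on replicate 1 and 124.6 against 15.42 on replicate 2. Its cell-labelled signal was well above background on neither array, so the size of the ratio is not known. The normalized log2 signals of 7.06 and 6.95 give a fold of 1.08, which is an estimate and not a lower bound. The log2 ratios of 0.12 and 0.09, with a mean of 0.11 ± 0.02 (SD, n = 2), did not pass (limma adjusted p = 0.515). The second probe gave 932.7 against 9.42 and 364.2 against 13.95. It had no value on replicate 1 for the mark on its local background, and 0.51 ± 0.23 (SD, n = 2; adjusted p = 0.0741) with just the extreme backgrounds left out. Neither probe of Sdc4 passed, and with cell-labelled signals this near the background a change of the gene could not be measured well.

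Glypican-1 (Gpc1), a lipid-anchored heparan sulfate proteoglycan, gave 2872 against 26.57 on replicate 1 and 1058 against 107.9 on replicate 2 (chr1:92767943-92768002). Its log2 ratio was 0.44 and 0.08, a mean of 0.26 ± 0.26 (SD, n = 2) that did not pass (limma adjusted p = 0.263), with 77.0% of tested probes lower. Of the 4 tested probes of the cell-surface group, 1 was higher and 0 were lower; without adjustment, 7 of the 10 tested probes of all members had a limma p under 0.05, among 6484 of the 18117.

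The ratios rest on dim cell-labelled signals. On replicate 1 the cell-labelled net signal was under 50 units in 11 of the 13 probes, and in 10 of the 13 it was below that spot's own local background. On replicate 2 it was under 110 units in 11 and below the local background in 4.

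**Figure D3:**
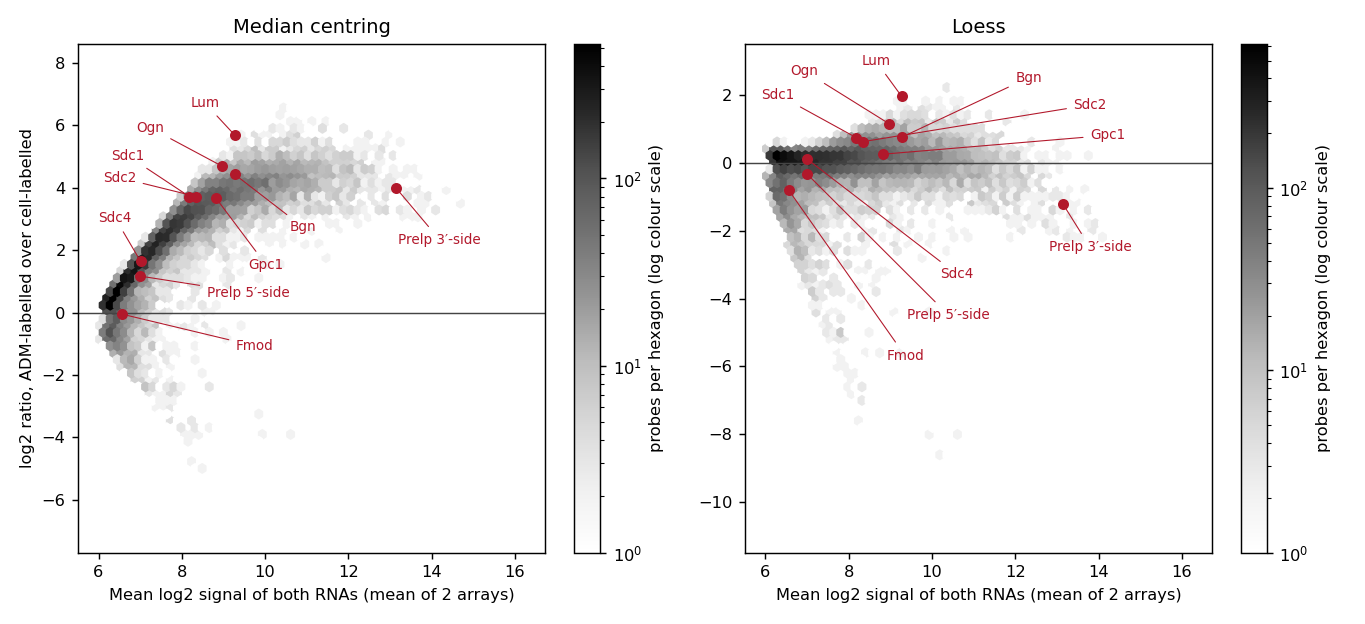
Log2 ratio of ADM-labelled over cell-labelled RNA against the mean log2 signal of the tested probes, with median centring (left) and after loess (right); grey hexagons count the tested probes (log colour scale) and labelled points are the tested probes of the proteoglycan genes. With median centring the ratio climbs with brightness and 8 of the 10 labelled probes pass as higher, while after loess the labelled probes spread around 0, with 3 higher and 2 lower.

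The share of calls in each direction differed with the processing. Of all calls 33.7% were higher after loess, 69.3% in the scanner's processed ratio, 23.6% with plain background subtraction, 41.1% with the variance trend and 97.6% with median centring, where the median of all tested probes was 2.04 in place of 0.07. In the processed ratio that median was 0.69. With median centring 8 of the 10 proteoglycan probes passed as higher and 0 as lower. Their distance from the median of all tested probes then was 3.65 for Lum, 2.65 for Ogn, 2.39 for Bgn, 1.68 for Sdc1 and for the tested Sdc2 probe, 1.63 for Gpc1, -0.40 for Sdc4 and -2.09 for Fmod. Relative to other probes, Lum, Ogn, Bgn, Sdc1, Sdc2 and Gpc1 stood above the middle under both scalings and Fmod stood below it. Sdc4 stood above it after loess and below it with median centring, while the 3′ probe of Prelp stood below it after loess and above it with median centring. Under that centring the ratio climbs with brightness. The proteoglycan probes above the middle then had mean log2 signals of at least 8.18, and those below it of at most 7.01. Agreement between the scalings is therefore no separate evidence.

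The proteins that share the pathway were taken as 4 lists, with each gene represented by its brightest tested probe. Over all 12861 genes so represented, 6.48% were higher and 13.4% lower, with a median log2 ratio of 0.04. Of 120 listed genes 81 were tested, and 21 were higher, 8 lower while 52 did not pass, and their median was 0.23. Some of those higher were detected in the ADM-labelled RNA alone, and Has1 and Cemip, both lower, in the cell-labelled RNA alone. Such calls are not independent of the filter. These lists hold no member, and they were drawn up with results of these arrays known.

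Other core proteins of proteoglycans gave 3 higher and 2 lower of 16 tested, with a median of 0.03. The counts were 7 and 0 with median centring, 7 and 4 in the scanner's processed ratio, and 0 and 1 with plain background subtraction. Agrn, the heparan sulfate proteoglycan agrin of basement membranes and the neuromuscular junction, rose by 1.23 ± 0.11 (SD, n = 2, limma adjusted p = 0.0157). Its other probes were above background in neither RNA. Col18a1, the collagen XVIII gene, rose by 1.16 ± 0.35 and by 1.14 ± 0.10 on its other probe (adjusted p = 0.0288 and 0.0178). Aspn was the other gene that rose. Gpc4, a glypican released by adipocytes, fell by 2.11 on the log2 scale on its brighter probe (SD 0.34, adjusted p = 0.0114). Its other probe had 0.86 ± 0.31 (adjusted p = 0.0415), with a cell-labelled signal above background on neither array. Sdc3, the syndecan of nerve and muscle, had -1.76 ± 0.55 (adjusted p = 0.0249) and -1.26 on its other tested probe (adjusted p = 0.0544). With median centring Gpc4 was at 2.25 and Sdc3 at 0.84, so the sign of both turned. The median of all tested probes was then 2.04, so Gpc4 lay above the middle and Sdc3 still below it.

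Enzymes that build the sugar chains gave 8 higher and 2 lower of 38 tested, with a median of 0.19. The counts were 27 and 0 with median centring, 15 and 4 in the scanner's processed ratio, and 1 and 3 with plain background subtraction. The 4 with the highest ratios were Ext2, a polymerase of heparan sulfate (1.29 ± 0.24, limma adjusted p = 0.0195), Chsy1, a chondroitin synthase (1.20 ± 0.23, 0.0211), Hs6st1, a heparan sulfate 6-O-sulfotransferase (1.19 ± 0.37, 0.029), and Chpf2, a chondroitin polymerizing factor (1.08 ± 0.20, 0.023), each as SD with n = 2. The lower ones were Chst11, a chondroitin 4-O-sulfotransferase, at -1.22 ± 0.24 (adjusted p = 0.0213), and Extl3, which starts heparan sulfate chains, at -0.97 ± 0.05 (adjusted p = 0.0213). Both turned positive with median centring, to 1.21 and 3.48. Against the median of all tested probes under that centring, 2.04, Chst11 still lay below and Extl3 above. Other tested probes of Chst11 did not pass (adjusted p = 0.408 and 0.0713), and the other probe of Extl3 fell by 3.52 on the log2 scale (adjusted p = 0.00526). The other probe of Chpf2 was not tested, as it had a log2 ratio on replicate 1 only, 0.00038.

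Genes of remodelling and breakdown, most of them proteases that cut core proteins and lysosomal enzymes that take the chains apart, gave 10 higher and 1 lower of 19 tested, with a median of 0.86. With plain background subtraction 2 were higher and 1 lower. Some genes of this list, higher ones among them, were detected in the ADM-labelled RNA alone. The counts and the median are thus not independent of the filter. Adamts1, a protease of large matrix proteoglycans, rose by 1.78 ± 0.30 (SD, n = 2, limma adjusted p = 0.014). Its dimmer probe, not above background in the cell-labelled RNA, had 0.73 ± 0.52 and did not pass (adjusted p = 0.099). Sulf2, a secreted enzyme that removes sulfate groups from heparan sulfate, rose by 1.31 ± 0.14 and by 1.04 on its other probe (adjusted p = 0.0149 and 0.0296). Hgsnat, a lysosomal enzyme of heparan sulfate breakdown, rose by 1.17 ± 0.07 (adjusted p = 0.016). Adamts4, an aggrecan-cleaving protease, fell by 6.24 on the log2 scale (SD 1.32, adjusted p = 0.0117). On each array its net signal was lower in ADM-labelled RNA, 70.38 against 373.2 and 27.92 against 1847.

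The hyaluronan list, with synthases, receptors and hyaluronidases of the chain that no core protein carries, gave 0 higher and 3 lower of 8 tested, with a median of -0.22. Has1, a hyaluronan synthase, was not detected in ADM-labelled RNA (well above background on 0 arrays). Its log2 ratio of -1.38 (limma adjusted p = 0.012) rests on that undetected signal. Cemip, a hyaluronan-degrading protein, was represented by A_51_P107998, which was also not well above background in ADM-labelled RNA on either array. This probe fell by 2.16 on the log2 scale (adjusted p = 0.0349). That value too rests on an undetected signal, and it is an estimate and not a lower bound. The other tested probe of Cemip, A_51_P456114, was above background in the ADM-labelled and not in the cell-labelled RNA, and did not pass (adjusted p = 0.919). Stab2, a clearance receptor for hyaluronan, had -1.04 ± 0.49 (SD, n = 2; adjusted p = 0.0488). All 3 calls were lost with median centring (limma adjusted p = 0.206 for Has1, 0.134 for Cemip and 0.952 for Stab2), and that of Stab2 also without the filter on dim probes (0.054) and with robust moderation (0.0568). With that centring the ratios were -1.01 for Has1, -1.18 for Cemip and -0.05 for Stab2, while the median of all tested probes was 2.04. The list gave 2 higher and 0 lower with median centring, and 3 higher and 3 lower in the scanner's processed ratio. Without a test of the lists against each other, these counts describe each list beside the rates over all genes.

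**Figure D4:**
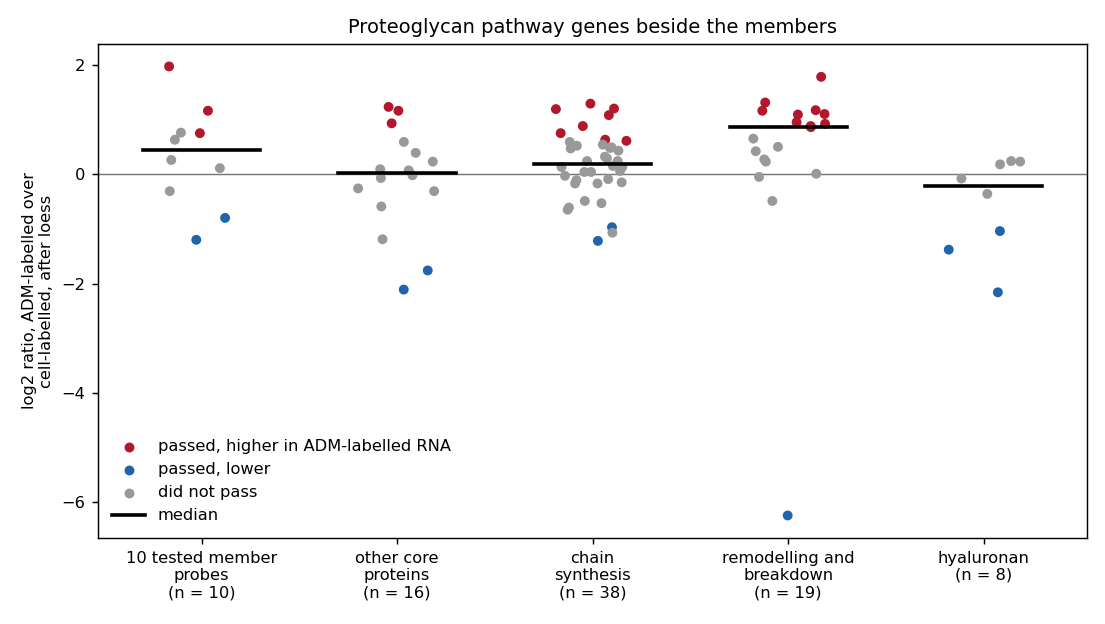
Log2 ratio after loess (vertical axis) of the 10 tested proteoglycan probes and of the tested genes of the 4 pathway lists, 1 point per probe or gene (red, passed and higher in the ADM-labelled RNA; blue, passed and lower; grey, did not pass), with the median as a bar. The median of the remodelling and breakdown list is 0.86 and that of the hyaluronan list -0.22; the lowest point is Adamts4, at -6.24.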

How the data were processed

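RNA of ADMs and of donor 3T3-L1 adipocytes was hybridised together on each of 2 Agilent 2-colour arrays with swapped dyes; both lay on 1 slide and were read in 1 scan. Spot and local background intensities were deposited as read by Feature Extraction 10.5.1.1, per the file headers, without normalization. The log10 ratio in the same files, and in the deposited value table, had been background- and dye-corrected by that program, per the file headers. Coordinates are those of the files (mm7), and exon annotation of that build is not used here.

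Spots were background-corrected with normexp (offset 50) on the mean spot and median local background intensity. Ratios were normalized by loess within each array, with control spots at weight 0, and turned to ADM-labelled over cell-labelled RNA. Any spot flagged as an outlier for the spot or for its local background was left out; including the local background in this was chosen with earlier results of these data known, and it removed the values of 3198 of 41174 probes on at least 1 array. A probe was tested where 1 of the RNAs was well above background on both arrays (at least 50% of its spots). limma 3.58.1 (lmFit and eBayes, R 4.3.3) tested the mean against 0, with 1 residual and 2.91 prior degrees of freedom. The steps were tested on simulated data. Members were matched by the array's gene name. For the pathway lists and markers, 22951 probes were named by RefSeq accession (GRCm38.p6) and 18223 kept their own name or a synonym.

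Members and lists were chosen with earlier results of these data known. The genes named are the members and, per list, up to 4 of the highest and 3 of the lowest that passed with 1 sign on both arrays; Kera, Epyc, Ecm2 and Omd were named as neighbours after their values were seen. One gene that the rule names is not reported here. No sequence is shown. Alternatives changed the scaling, background correction, offset, flags, filter and variance model.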

Additional observations from a re-analysis of the deposited data

How the results depend on the processing

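The test was paired, since each array is itself the pair of RNAs. A further block for the replicate number would leave no residual degrees of freedom, so none was fitted. Counts of calls moved by more than 1.5 times as follows, with higher before lower. Median centring gave 10778 and 265 of all probes (1000 and 1969 after loess), 8 and 0 members, and 51 and 1 pathway genes; the sign turned for the Prelp probes (1.17 and 4.0), Chst11 (1.21), Extl3 (3.48), Gpc4 (2.25) and Sdc3 (0.84). The scanner's processed ratio gave 5798 probes and 38 pathway genes higher and 1 member lower. Offset 10 gave 1864 and 3059 probes, 1 member lower and 14 pathway genes lower. Plain background subtraction gave 474 probes and 4 pathway genes higher, and 1 member in each direction. The variance trend gave 1706 probes higher, and 5 members higher and 1 lower. With spots kept whose local background alone was marked, 0 probes, 0 members and 0 pathway genes passed in limma in either direction, with 158 probes and 0 members at an unadjusted p under 0.05. Leaving out just the 13 and 8 spots with a local background above 100 units, an alternative chosen after the data were seen, gave 5 members higher, with 1375 and 2472 of all probes, within 1.5 times. No filter on dim probes, robust variance moderation, matching members by accession and the median probe of a gene moved no count by over 1.5 times. Over the alternatives fitted on both arrays, members' ratios stayed on the same side of the threshold in 68 comparisons, passed where they had not in 9, no longer passed in 14 and turned sign in 2. Each array alone kept the sign of every tested member probe, as a value with no test. With 2 arrays and 1 slide, precision is limited, and cell-labelled signals near the background limit every ratio of a dim member.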
